A study of Mus musculus with 96 samples.

Results

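The kidney of mice lacking *Scx* was compared with the kidney of wild-type mice in 6 bulk RNA libraries, 3 from wild-type and 3 from *Scx-/-* mice, all aged 3 weeks and not treated. *Scx* encodes scleraxis, a basic helix-loop-helix transcription factor best known from tendon progenitors, and *Scx-/-* mice lack it in the whole body. The 6 libraries were chosen by their labels from 96 libraries that cover 16 tissues, and every gene with at least 1 count in any of them was tested, 15377 of the 41575 genes listed. Whole organs had been frozen and their RNA extracted as a whole, so the libraries hold the nephron, its vessels and interstitium, and any tissue attached to the organ. A lower count can therefore come from fewer cells of a type or from less RNA per cell, and these cannot be told apart. The sources used here do not give the sex or strain of the mice, nor which libraries shared a mouse.

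The kidney filters blood in glomeruli lined by podocytes and recovers most of the filtrate in the proximal tubule, which also makes glucose and handles vitamin D. The thick ascending limb and the distal segments then take up salt, calcium and magnesium, and the collecting duct sets water and acid balance. Tendon-type matrix, where *Scx* is best known, is only a minor part of this organ, and the comparison asks which kidney genes differ when *Scx* is absent.

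Depth differed between genotypes. Wild-type libraries held 1015500, 879922 and 672218 counts, and *Scx-/-* libraries held 447350, 325755 and 242429, so no *Scx-/-* library reached the depth of a wild-type library. Genes with a count numbered 12049 to 12660 in wild-type and 9024 to 10631 in *Scx-/-* libraries, and 10952 to 11338 against 9024 to 10122 after thinning each library to 242429 counts. Over 9435 genes with a mean of at least 10 CPM (counts scaled to a library total of 1e6), the Pearson correlation of log2(CPM + 1) was 0.687 to 0.740 between wild-type libraries, 0.484 to 0.546 between *Scx-/-* libraries, and 0.547 to 0.666 between genotypes. Across genes these values are a description only. Counts of *Xist* were 677, 0 and 501 in wild-type and 245, 0 and 0 in *Scx-/-* libraries, and summed counts of 4 Y-linked genes were 2, 125 and 2 against 0, 101 and 91. Libraries with Y-linked counts and no *Xist* were thus 1 of 3 in wild-type and 2 of 3 in *Scx-/-* kidney. Wild-type replicate 2 stood apart in another way, since it alone held counts of the beta-globin genes *Hbb-bs* (639 counts) and *Hbb-bt* (28 counts), while *Hbb-b1* had counts in every library. Each result that rests on this library is given with and without it.

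The tissue label fitted the marker genes in both genotypes. The proximal tubule phosphate transporter gene *Slc34a1* stood at 4356, 4280 and 4182 CPM in wild-type and 3668, 4694 and 4158 CPM in *Scx-/-* libraries. The endocytic receptor gene *Lrp2* (megalin) stood at 1991, 1812 and 1590 CPM against 1717, 1962 and 1625 CPM. Both overlapped between genotypes, and neither passed the test.

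*Scx* lies on chromosome 15 of mm10 (76457452 to 76459458, plus strand), inside *Bop1* on the other strand. Its counts were 7, 3 and 0 in the wild-type kidney and 0, 0 and 0 in the *Scx-/-* kidney. A count of 0 allows up to 6.71, 9.21 and 12.4 CPM in the single *Scx-/-* libraries (3 counts each) and 2.95 CPM over the group, against 6.89, 3.41 and 0 CPM in wild-type libraries. The pooled wild-type value, 10 counts or 3.89 CPM, was thus at least 1.32-fold higher than the *Scx-/-* value, and the test gave an adjusted p of 0.791. Without wild-type replicate 1 the pooled wild-type value was 3 counts or 1.93 CPM, below that limit, and no bound could be given. The counts run the way the labels say, but the depth was too low to show the loss of the gene. How much of *Scx* is deleted in these mice is not stated in the sources used here. Of 59 tested genes within 1 Mb of *Scx*, 2 passed the study's thresholds (3.39%, against 4.32% of all genes tested). These were *Arhgap39*, at 0.985, 38.6 and 17.9 CPM in wild-type and 0 in all *Scx-/-* libraries, and *Zfp7*, at 3.94, 1.14 and 2.98 CPM against 31.3, 67.5 and 0 CPM. Both were named after their values were seen, and neither passed the adjusted p.

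A gene counted as differentially expressed (DEG) where its log2 fold change exceeded 1 in either direction and its p before adjustment was under 0.05, as the study set it. A stricter call used an adjusted p under 0.05. By the study's definition 664 genes (4.32% of those tested) were DEGs, 250 higher (1.63%) and 414 lower (2.69%) in *Scx-/-* kidney. An unadjusted p under 0.05 alone was reached by 809 genes (5.26%), where 5% would reach it if no gene differed. Of the 414, 160 had no count in any *Scx-/-* library, and of the 250, 117 had no count in any wild-type library. Among 1918 genes with a mean of at least 100 CPM, where depth matters less, 76 were DEGs (3.96%), 22 higher and 54 lower. The median log2 fold change of all tested genes was -0.28, and -0.17 with another scaling (RLE), under which 50.4% of DEGs were lower against 62.3% here. Without wild-type replicate 2, 343 genes were DEGs, and without *Scx-/-* replicate 1, 948.

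**Figure D1:**
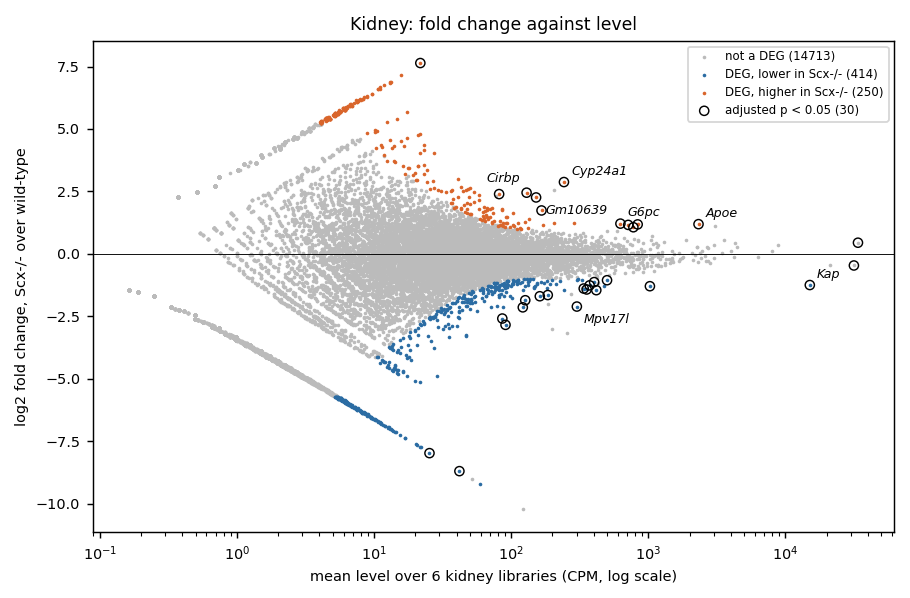
Log2 fold change (*Scx-/-* over wild-type) of each of 15377 kidney genes against its mean CPM over 6 libraries on a log axis, with 414 lower and 250 higher DEGs coloured and the 30 genes at an adjusted p under 0.05 circled. The spread of fold changes widens toward low levels, and most circled genes lie above 100 CPM.

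At an adjusted p under 0.05, 30 genes were called (0.195% of those tested), 12 higher and 18 lower. In 28 of them the CPM of the genotypes did not overlap, and 10.7% of all tested genes did not overlap. The 30 were chosen for a difference in these same libraries, so their lack of overlap adds no support to the calls. The balance turned with the scaling and the tool, with 16 higher and 13 lower under RLE, 15 and 14 with library totals, 14 and 6 in DESeq2, 7 and 2 in limma-voom, and 9 and 5 without wild-type replicate 2. The number of calls depended on the model too. With genes of low counts removed by filterByExpr, edgeR tested 7724 genes and called 0, with 390 genes (5.05%) at an unadjusted p under 0.05 and a lowest adjusted p of 0.0566 (*Cyp24a1*). DESeq2 called 20 genes, 15 of them among the 30, and limma-voom on the filtered genes called 9, of which 6 were among the 30. The call held in each of 6 fits that left out 1 library for 7 genes, *Cyp24a1*, *Cirbp*, *Gm10639*, *G6pc*, *Apoe*, *Kap* and *Mpv17l*. The same 7 kept it in DESeq2, in the fit with the replicate number as a block, and with a covariate for libraries with Y-linked counts. In limma-voom *Cirbp*, *Gm10639*, *G6pc* and *Mpv17l* were called, while *Cyp24a1* (adjusted p = 0.511), *Apoe* (0.79) and *Kap* (0.87) were not. In the fit of 18 libraries *Apoe* kept its call (adjusted p = 0.000387), and the other 6 lost it (*Kap* 0.0878, *Cyp24a1* 0.208, *Cirbp* 0.224, *Mpv17l* 0.33, *G6pc* 0.607 and *Gm10639* 1). None of the 30 kept its call under every alternative. With all libraries thinned to the depth of the shallowest, 28 genes were called, 23 of them among the 30.

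**Figure D2:**
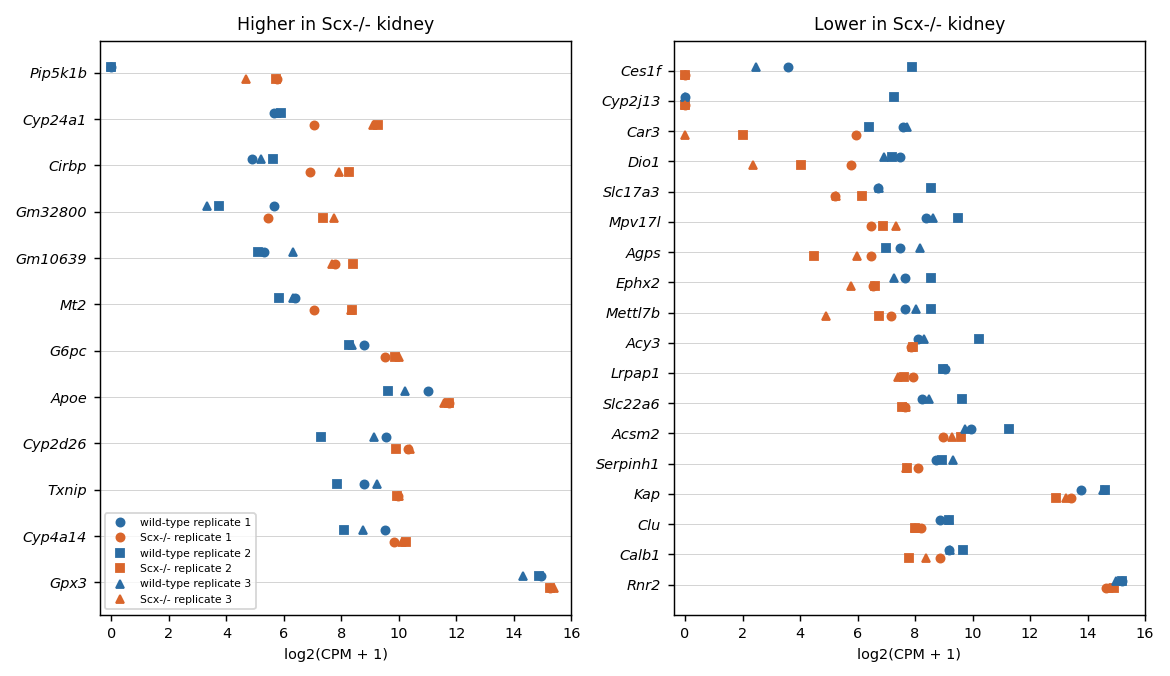
Level of the 30 kidney genes at an adjusted p under 0.05 in every library, as log2(CPM + 1), with wild-type libraries in blue and *Scx-/-* libraries in orange and a symbol for each replicate number. *Ces1f* and *Cyp2j13* rest mainly on wild-type replicate 2 (squares), while the 3 *Scx-/-* libraries lie together for *Apoe* and *Txnip*.

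*Cyp24a1* (chromosome 2, 170482708 to 170497145), the 24-hydroxylase that breaks down active vitamin D, had the highest fold change among the genes at an adjusted p under 0.05 that had counts in both genotypes. It stood at 49.2, 59.1 and 53.6 CPM in wild-type and 130, 620 and 544 CPM in *Scx-/-* libraries. The wild-type libraries lay close together, and *Scx-/-* replicate 1 lay between them and the other *Scx-/-* libraries. The log2 fold change was 2.88 ± 0.37 (SE, adjusted p = 1.21e-10), and 2.22 to 3.31 across the alternatives. *Vdr*, the vitamin D receptor, stood at 190, 215 and 207 CPM against 224, 249 and 330 CPM (log2 fold change 0.28 ± 0.35, adjusted p = 0.86). *Calb1*, the vitamin D-dependent calcium buffer of the distal tubule, went the other way, at 574, 813 and 595 CPM in wild-type and 469, 221 and 330 CPM in *Scx-/-* libraries (log2 fold change -1.06 ± 0.27, adjusted p = 0.0484). Its call was kept only without *Scx-/-* replicate 1 among the fits that left out a library, with an adjusted p of 0.108 to 0.958 in the others. It was also lost under RLE (adjusted p = 0.157), library totals (0.143), DESeq2 (0.113) and thinning (0.0756), and under the first 3 its log2 fold change did not reach -1. *S100g*, the smaller calbindin, stood at 1783, 1964 and 3096 CPM against 2289, 2545 and 2656 CPM, with overlapping groups. *Vdr* was named after its values were seen.

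*G6pc* (chromosome 11, 101367561 to 101377903), the catalytic subunit of glucose-6-phosphatase that releases glucose, stood at 438, 307 and 329 CPM in wild-type and 738, 924 and 1023 CPM in *Scx-/-* libraries (log2 fold change 1.21 ± 0.25, adjusted p = 0.00242). *Apoe* (chromosome 7, 19696109 to 19699188), the lipoprotein ligand, stood at 2054, 792 and 1190 CPM against 3434, 3429 and 3048 CPM (log2 fold change 1.19 ± 0.18, adjusted p = 8.17e-08). The *Scx-/-* values of *Apoe* lay close together and above all wild-type values. *Cyp4a14*, a fatty acid omega-hydroxylase, stood at 731, 270 and 433 CPM against 912, 1228 and 1097 CPM (log2 fold change 1.06 ± 0.24, adjusted p = 0.00687), and its call was lost without wild-type replicate 2 (adjusted p = 0.73), wild-type replicate 3 (0.108) or *Scx-/-* replicate 2 (0.0623). *Cyp4a10*, its neighbour and close relative, stood at 880, 616 and 805 CPM against 1060, 1707 and 1312 CPM, also without overlap (log2 fold change 0.72 ± 0.21, adjusted p = 0.25). Reads of such relatives may be split by the counting.

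*Pck1*, the rate-limiting enzyme of glucose synthesis from lactate and amino acids, stood at 1745, 1292 and 2449 CPM in wild-type and 2039, 6354 and 4488 CPM in *Scx-/-* libraries. *Scx-/-* replicate 1 lay inside the wild-type range, and the test was not passed (log2 fold change 1.13 ± 0.46, adjusted p = 0.791). Of 29 measured genes of peroxisomes and fatty acid oxidation, 1 was a DEG, *Pdk4* (3.45%, against 4.32% of all genes tested). Their median log2 fold change was 0.10, beside -0.28 over all genes. For the 22 with a mean of at least 100 CPM it was 0.02, beside -0.08 over all genes at that level. *Cyp4a10* was named after its values were seen.

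Genes that glucocorticoids and metals are known to induce took a higher share of counts in *Scx-/-* libraries. The 16 measured members of a list of metallothioneins and glucocorticoid targets took 0.264% to 0.366% of counts in wild-type and 0.464% to 0.598% in *Scx-/-* libraries. Of the 16, 3 were DEGs and higher (18.8%, against 4.32% of all genes tested), none was lower, and the median log2 fold change was 0.57. *Txnip*, an inhibitor of thioredoxin that also follows glucose, stood at 437, 230 and 600 CPM against 1010, 976 and 1031 CPM (log2 fold change 1.16 ± 0.24, adjusted p = 0.00242). Its call was lost without wild-type replicate 2 (log2 fold change 0.88, adjusted p = 0.428). *Mt2*, a metallothionein that binds zinc and copper, stood at 81.7, 55.7 and 78.8 CPM against 130, 332 and 322 CPM (log2 fold change 1.74 ± 0.42, adjusted p = 0.0205). The groups did not overlap, but the call of *Mt2* was kept only without *Scx-/-* replicate 1 among the fits that left out a library, with an adjusted p of 0.0922 to 0.355 in the others, and was lost with the Y-linked covariate (0.42) and the replicate block (0.114). Its neighbour *Mt1* stood at 864, 474 and 470 CPM against 648, 1372 and 907 CPM, with overlapping groups (log2 fold change 0.58 ± 0.23, adjusted p = 0.791). *Sgk1*, a kinase induced by mineralocorticoids and glucocorticoids that raises sodium uptake, stood at 1064, 649 and 735 CPM against 1178, 1280 and 1423 CPM (log2 fold change 0.56 ± 0.21, adjusted p = 0.788).

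The 250 bases upstream of the RefSeq starts of *Mt2* and *Mt1* (GRCm38.p6) are shown because metals act on these genes through metal response elements. Capitals mark the core letters TGCGCNC or TGCACNC, read on both strands. The *Mt2* window is chr8:94172368-94172617 and the *Mt1* window chr8:94178839-94179088, both on the plus strand.

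Mt2: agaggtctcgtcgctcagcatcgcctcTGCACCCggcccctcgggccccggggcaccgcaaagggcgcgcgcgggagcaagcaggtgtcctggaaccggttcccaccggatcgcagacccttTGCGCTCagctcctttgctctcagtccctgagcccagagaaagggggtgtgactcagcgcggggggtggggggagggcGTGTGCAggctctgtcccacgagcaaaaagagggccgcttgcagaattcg

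Mt1: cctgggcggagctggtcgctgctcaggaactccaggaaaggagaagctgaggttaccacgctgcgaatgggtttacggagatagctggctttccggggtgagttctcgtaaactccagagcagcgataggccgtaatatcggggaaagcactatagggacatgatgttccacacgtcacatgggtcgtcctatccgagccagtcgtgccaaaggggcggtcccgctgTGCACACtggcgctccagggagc

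The *Mt2* window held 3 matches and the *Mt1* window 1. Only these 250 bases were searched, so elements outside the windows were not counted and the genes cannot be ranked by them. At least 1 match was found in 33.4% of 10931 tested genes with a RefSeq promoter entry, in 31.1% of 180 higher DEGs, and in 35.5% of 318 lower DEGs. The same windows were searched for CAGCTG and CATCTG, E-box letters that factors of the scleraxis class can bind. A match was found in 24.7% of tested genes, in 24.4% of higher DEGs, in 25.5% of lower DEGs, and in 5 of 20 genes at an adjusted p under 0.05 that had an entry. *Cirbp* and *Lrpap1* were among the 5, each with the reverse form CAGATG in capitals, in windows chr10:80167589-80167838 (plus strand) and chr5:35105700-35105949 (minus strand). The *Cirbp* window lies inside the gene span printed below, and part of the *Lrpap1* window lies inside its span. Windows follow RefSeq starts and spans follow GENCODE, which differ here.

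Cirbp: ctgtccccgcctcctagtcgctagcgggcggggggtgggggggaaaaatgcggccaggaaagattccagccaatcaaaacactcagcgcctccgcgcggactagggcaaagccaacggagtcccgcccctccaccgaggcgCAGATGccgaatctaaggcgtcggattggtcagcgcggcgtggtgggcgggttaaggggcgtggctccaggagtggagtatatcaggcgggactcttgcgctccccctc

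Lrpap1: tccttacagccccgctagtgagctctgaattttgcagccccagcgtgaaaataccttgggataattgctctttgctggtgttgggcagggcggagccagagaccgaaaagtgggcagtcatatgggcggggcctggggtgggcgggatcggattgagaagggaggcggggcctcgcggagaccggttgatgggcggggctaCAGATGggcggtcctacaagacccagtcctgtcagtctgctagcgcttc

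*Cirbp* (chromosome 10, 80165985 to 80172786), an RNA-binding protein induced by mild cold, stood at 28.6, 47.7 and 35.7 CPM in wild-type and 118, 304 and 243 CPM in *Scx-/-* libraries (log2 fold change 2.45 ± 0.48, adjusted p = 0.000496). Every *Scx-/-* library lay above every wild-type library. Some heat shock and chaperone genes were called lower. Of 18 measured members of the list that holds them, 3 were lower DEGs and 1, *Cirbp*, was higher (22.2%, against 4.32% of all genes tested). The median log2 fold change of the 18 was -0.55, and their summed share was 0.471% to 0.500% of counts in wild-type and 0.299% to 0.418% in *Scx-/-* libraries. *Hsp90b1*, the chaperone of the endoplasmic reticulum, stood at 356, 521 and 314 CPM against 255, 255 and 107 CPM (log2 fold change -1.04 ± 0.32). *Hsph1*, a partner of the Hsp70 chaperones, stood at 234, 209 and 179 CPM against 134, 46 and 90.7 CPM (-1.29 ± 0.43), and *Hspd1*, the mitochondrial chaperonin, at 206, 206 and 226 CPM against 132, 95.2 and 61.9 CPM (-1.22 ± 0.42). *Hsp90ab1*, a cytosolic chaperone, stood at 957, 946 and 918 CPM against 503, 734 and 623 CPM (-0.71 ± 0.24). None of these 4 overlapped between genotypes, and none of the 4 passed the adjusted p, which was 0.315 to 0.507. In all, 7 of the 18 members did not overlap (38.9%, against 10.7% of all genes tested). Of the 18, 11 had a mean of at least 100 CPM, a level that 1918 of 15377 tested genes reached. The share without overlap was 31.4% for proximal tubule metabolism, 28.6% for thick ascending limb, 25% for respiratory chain and 12.8% for proximal tubule transport genes. *Hspa5*, the main Hsp70 of the endoplasmic reticulum, overlapped, at 603, 706 and 483 CPM against 431, 399 and 705 CPM (log2 fold change -0.34 ± 0.26, adjusted p = 0.791).

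Among antioxidant and detoxification genes, *Gpx3*, the plasma glutathione peroxidase made in the proximal tubule, was higher. It stood at 31700, 29767 and 20620 CPM in wild-type and 39490, 38716 and 42598 CPM in *Scx-/-* libraries (log2 fold change 0.45 ± 0.09, adjusted p = 0.000926), so it passed the adjusted p without reaching the study's fold. The call was lost without wild-type replicate 3 (log2 fold change 0.28, adjusted p = 0.727) and without *Scx-/-* replicate 3 (adjusted p = 0.0617). *Gm10639*, a predicted protein-coding gene on chromosome 9 (78289923 to 78305525) that lies 47239 bases from *Gsta1* and 25493 bases from *Gsta2*, stood at 38.4, 33 and 78.8 CPM against 219, 341 and 202 CPM (log2 fold change 2.26 ± 0.44, adjusted p = 0.000514). Its reads are uncertain where a near-identical relative shares them. *Cyp2d26*, a cytochrome P450 of a large family, stood at 751, 156 and 556 CPM against 1261, 949 and 1349 CPM (log2 fold change 1.18 ± 0.27, adjusted p = 0.0264), and its call held in the fit without wild-type replicate 1 but in no other that left out a library (adjusted p = 0.164 to 0.73). Of 23 measured genes of glutathione and the NRF2 response, 2 were lower DEGs (8.70%, against 4.32% of all genes tested), none was higher by those thresholds, and the median log2 fold change was -0.16. Their summed share was 2.89% to 3.93% of counts in wild-type and 4.52% to 5.08% in *Scx-/-* libraries. Without *Gpx3* the shares overlapped, at 0.760% to 0.824% and 0.647% to 0.820%.

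*Kap* (chromosome 6, 133849851 to 133853762), the kidney androgen-regulated protein of the proximal tubule, had the lowest adjusted p of all genes. It stood at 14022, 24811 and 23455 CPM in wild-type and 10846, 7561 and 9685 CPM in *Scx-/-* libraries (log2 fold change -1.25 ± 0.12, adjusted p = 5.79e-16). Every *Scx-/-* library lay below every wild-type library. Split by sex-linked counts, the values were 14022 and 23455 against 10846 CPM with *Xist* and 24811 against 7561 and 9685 CPM with Y-linked counts, an order that the lack of overlap already fixes, with 1 library in an arm of each split. Without wild-type replicate 2 its log2 fold change was -1.07. The 16 measured genes known to differ between male and female kidneys had a median log2 fold change of -1.07, and of -0.14 without wild-type replicate 2. Of the 16, 3 were lower DEGs and none was higher (18.8%, against 4.32% of all genes tested). The 3 were *Kap*, *Cyp2j13*, with counts only in wild-type replicate 2, and *Acsm3*, at 11.8, 54.6 and 13.4 CPM against 2.24, 0 and 0 CPM. The summed share of the 16 did not overlap between genotypes with *Kap* and did without it, at 0.106% to 0.289% of counts in wild-type and 0.105% to 0.115% in *Scx-/-* libraries.

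*Mpv17l* (chromosome 16, 13903161 to 13949619), a protein of the peroxisome and mitochondrion linked to reactive oxygen species, stood at 328, 722 and 394 CPM in wild-type and 87.2, 117 and 161 CPM in *Scx-/-* libraries (log2 fold change -2.11 ± 0.33, adjusted p = 8.39e-07). Without wild-type replicate 2 the log2 fold change was -1.66 (adjusted p = 0.047). *Lrpap1* (chromosome 5, 35091501 to 35105766), the chaperone that keeps receptors of the LDL receptor family such as megalin free of ligand, stood at 523, 497 and 507 CPM against 244, 193 and 169 CPM (log2 fold change -1.43 ± 0.30, adjusted p = 0.0028). The values lay close together within each genotype, and the call was lost without wild-type replicate 1 (adjusted p = 0.0695). *Agps*, the peroxisomal enzyme that starts ether lipids, stood at 176, 125 and 289 CPM against 87.2, 21.5 and 61.9 CPM (log2 fold change -1.86 ± 0.47, adjusted p = 0.0421). Its call held in 1 of 6 fits that left out a library, that without *Scx-/-* replicate 1, with an adjusted p of 0.0519 to 0.949 in the others, and was lost under RLE (0.081), library totals (0.0721) and DESeq2 (0.0954).

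*Dio1*, the deiodinase that activates thyroid hormone, stood at 178, 145 and 120 CPM in wild-type and 53.6, 15.3 and 4.12 CPM in *Scx-/-* libraries (log2 fold change -2.59 ± 0.58, adjusted p = 0.00739). All *Scx-/-* values were lower, and the call was lost without wild-type replicate 1 (adjusted p = 0.38), wild-type replicate 2 (0.199) or *Scx-/-* replicate 3 (0.0617). *Clu*, clusterin, an extracellular chaperone of the tubule, stood at 466, 585 and 573 CPM against 291, 252 and 252 CPM (log2 fold change -1.13 ± 0.29, adjusted p = 0.0484), and its call was lost in each of 6 fits that left out a library (adjusted p = 0.0616 to 0.696) and under RLE (0.151) and library totals (0.14), and kept in DESeq2 (0.0184). *Rnr2*, a symbol that the gene table used here lists only as mt-Rnr2, the large mitochondrial ribosomal RNA, stood at 37255, 37083 and 32115 CPM against 25220, 30729 and 27105 CPM (log2 fold change -0.47 ± 0.09, adjusted p = 0.000496), with the call lost without wild-type replicate 1 (0.0695) or *Scx-/-* replicate 1 (0.0754). Among 72 measured nuclear genes of the respiratory chain, 3 were lower DEGs and none was higher (4.17%, against 4.32% of all genes tested). The median log2 fold change of the 72 was -0.27. For the 67 with a mean of at least 100 CPM it was -0.26, against -0.08 for all 1918 genes at that level. The genotypes did not overlap for 18 of the 72 (25%, against 10.7% of all genes tested), 13 lower and 5 higher. Summed shares overlapped with all members but not without *Atp5a1*, at 4.07% to 4.37% in wild-type and 3.80% to 4.03% in *Scx-/-* libraries.

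Several proximal tubule and metabolic genes were called lower with wild-type replicate 2 far above the other wild-type libraries. *Slc22a6*, the organic anion transporter OAT1, stood at 298, 783 and 356 CPM in wild-type and 199, 187 and 206 CPM in *Scx-/-* libraries. *Slc17a3*, a sodium phosphate and urate transporter, stood at 104, 376 and 106 CPM against 35.8, 70.6 and 37.1 CPM. *Acsm2*, a medium-chain acyl-CoA synthetase of the proximal tubule, stood at 991, 2442 and 843 CPM against 496, 771 and 623 CPM. None of the 3 overlapped between genotypes.

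*Acy3*, an aminoacylase, stood at 276, 1207 and 314 CPM in wild-type and 232, 243 and 235 CPM in *Scx-/-* libraries. *Ces1f*, a carboxylesterase, stood at 10.8, 236 and 4.46 CPM against 0 in all *Scx-/-* libraries, at least 29.3-fold lower (at least 2.81-fold without wild-type replicate 2), and *Cyp2j13*, a P450, had 152 CPM in wild-type replicate 2 and 0 in the other 5 libraries. With all libraries the log2 fold changes of *Slc22a6*, *Slc17a3*, *Acsm2* and *Acy3* were -1.39, -2.14, -1.30 and -1.46 (adjusted p = 0.00687, 0.00707, 1.98e-05 and 0.00145). Without wild-type replicate 2 they were -0.80, -1.21, -0.63 and -0.39, with an adjusted p of 0.958 for each. *Ces1f* was not called without that library (adjusted p = 0.958), and *Cyp2j13* then had no count. Calls were also lost in DESeq2 and with the replicate block for *Slc22a6* (adjusted p = 0.0641 and 0.0812), *Slc17a3* (0.0648 and 0.0873) and *Acy3* (0.141 and 0.197). *Acsm2* kept its call in both. *Acy3* also lost its call without *Scx-/-* replicate 1 (0.1), 2 (0.517) or 3 (0.302).

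*Mettl7b*, a methyltransferase-like protein, stood at 201, 373 and 259 CPM in wild-type and 141, 107 and 28.9 CPM in *Scx-/-* libraries (log2 fold change -1.65 ± 0.39, adjusted p = 0.0187, and 0.958 without wild-type replicate 2). *Ephx2*, the soluble epoxide hydrolase, stood at 200, 377 and 153 CPM against 91.7, 95.2 and 53.6 CPM (log2 fold change -1.70 ± 0.42, adjusted p = 0.0295, and 0.958 without wild-type replicate 2). Both were lower in each *Scx-/-* library than in any wild-type library. The *Mettl7b* call was also lost in DESeq2 (0.0954) and without wild-type replicate 3 (0.0859) or *Scx-/-* replicate 3 (0.232). That of *Ephx2* was also lost without wild-type replicate 1 (0.101) or *Scx-/-* replicate 3 (0.115). It was lost too under RLE (0.0708), library totals (0.0699), DESeq2 (0.0648), thinning (0.225) and the replicate block (0.109). Of the 30 calls, 11 remained without wild-type replicate 2.

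**Figure D3:**
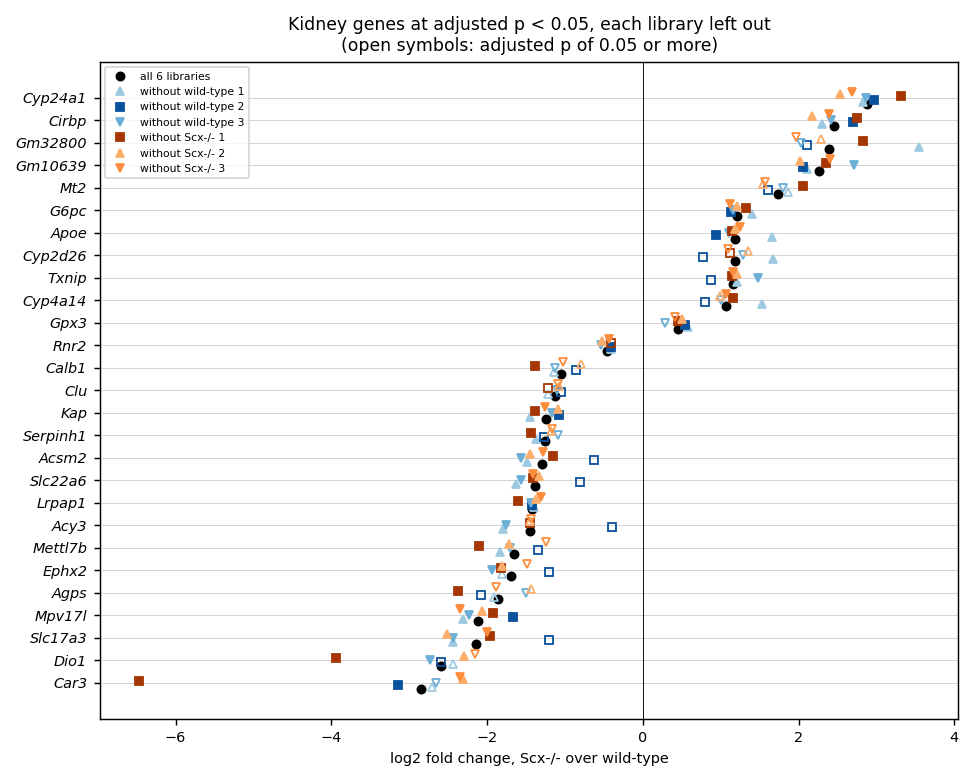
Log2 fold change (*Scx-/-* over wild-type) of the 27 kidney genes at an adjusted p under 0.05 that had counts in both genotypes, with all 6 libraries (black) and with each library left out. Filled symbols have an adjusted p under 0.05, and the open dark blue squares of *Acsm2*, *Acy3*, *Slc17a3* and *Slc22a6* lie nearer 0 than their other fits.

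A pair of higher genes was measured at low counts. *Pip5k1b*, a phosphatidylinositol phosphate kinase, had 0 counts in all wild-type libraries and stood at 53.6, 52.2 and 24.7 CPM in *Scx-/-* libraries, at least 39.6-fold higher (adjusted p = 0.0458). Its call was kept only without *Scx-/-* replicate 3 among the fits that left out a library (adjusted p = 0.123 to 0.495 in the others). *Gm32800*, a long noncoding RNA on chromosome 2 (167847197 to 167847842), stood at 49.2, 12.5 and 8.93 CPM against 42.5, 163 and 214 CPM, so *Scx-/-* replicate 1 lay inside the wild-type range (log2 fold change 2.39 ± 0.61, adjusted p = 0.0464). Its call held when replicate 1 of either genotype was left out, and not in the other fits that left out a library (adjusted p = 0.197 to 0.802).

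Of the genes of interstitial collagens and tendon-type matrix, 3 were called lower. *Serpinh1*, the collagen chaperone HSP47, stood at 422, 490 and 640 CPM in wild-type and 275, 212 and 202 CPM in *Scx-/-* libraries (log2 fold change -1.26 ± 0.30, adjusted p = 0.0175). The genotypes did not overlap, and the call was lost without wild-type replicate 2 (0.109), wild-type replicate 3 (0.502), *Scx-/-* replicate 2 (0.0916) or *Scx-/-* replicate 3 (0.0917). *Col1a1*, a chain of type I collagen, stood at 277, 303 and 707 CPM against 210, 157 and 305 CPM (log2 fold change -1.03 ± 0.31, adjusted p = 0.278). *Col6a2*, a chain of type VI collagen, stood at 47.3, 80.7 and 95.2 CPM against 6.71, 52.2 and 8.25 CPM (-1.82 ± 0.80, adjusted p = 0.791). Both collagens overlapped between genotypes. Of 29 measured genes of the list, these 3 were lower DEGs and none was higher (10.3%, against 4.32% of all genes tested). The median log2 fold change was -0.58, beside -0.28 over all genes. For the 10 with a mean of at least 100 CPM it was -0.60, beside -0.08 over all genes at that level. The genotypes did not overlap for 2 of the 29 (6.9%, against 10.7% of all genes tested). The summed share of the 29 was 0.397% to 0.690% of counts in wild-type and 0.356% to 0.459% in *Scx-/-* libraries. Of 18 basement membrane genes, none was a DEG, and the median was -0.19.

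Several markers of fat were called lower beside them. Of 14 measured fat genes 6 were lower DEGs (42.9%, against 4.32% of all genes tested), with 5 lower without wild-type replicate 2. The summed share of the 14 was 0.132% to 0.168% of counts in wild-type and 0.0605% to 0.114% in *Scx-/-* libraries. *Car3*, a carbonic anhydrase abundant in fat cells, stood at 190, 84.1 and 208 CPM against 60.4, 3.07 and 0 CPM (log2 fold change -2.84 ± 0.58, adjusted p = 0.00125). Its call was lost without wild-type replicate 1 (0.127) or wild-type replicate 3 (0.138). *Adipoq*, the adipokine that defines fat cells, stood at 51.2, 1.14 and 34.2 CPM against 2.24, 0 and 0 CPM. *Fabp4*, a fatty acid carrier of fat cells and endothelium, stood at 332, 150 and 382 CPM against 165, 123 and 111 CPM, and *Cfd*, adipsin, at 173, 65.9 and 208 CPM against 98.4, 0 and 45.4 CPM. *Ucp1*, the uncoupling protein of brown fat, stood at 9.85, 56.8 and 104 CPM against 33.5, 0 and 0 CPM. *Adipoq*, *Fabp4*, *Cfd* and *Ucp1* each overlapped between genotypes and did not pass the adjusted p, which was 0.317 to 0.791. *Lpl*, lipoprotein lipase, the most abundant member, stood at 685, 908 and 622 CPM against 704, 470 and 767 CPM (log2 fold change -0.30 ± 0.24, adjusted p = 0.791), and without it the summed shares overlapped. The part of attached fat in the values of *Car3* and of the collagen genes was not tested.

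Lists of segment markers differed in how many members were called. In the list of proximal tubule transporters, 2 of 39 measured genes were lower DEGs (5.13%), *Slc22a6* and *Slc17a3*, none was higher, and the median log2 fold change was -0.12. Of 35 proximal tubule metabolism genes, 3 were higher (*Cyp24a1*, *G6pc* and *Cyp4a14*) and 4 lower (*Kap*, *Acsm2*, *Acy3* and *Acsm3*), with a median of -0.28. That is 20% of the list, against 4.32% of all genes tested. Of the 4 lower genes, *Acsm2* and *Acy3* lost their call without wild-type replicate 2, and *Acsm3*, an acyl-CoA synthetase, stood at 11.8, 54.6 and 13.4 CPM against 2.24, 0 and 0 CPM (adjusted p = 0.791). Without that library *Cyp24a1* and *G6pc* were still higher DEGs and *Kap* a lower one, *Cyp4a14* was no longer a DEG, and *Inmt*, a methyltransferase, became a higher DEG (log2 fold change 1.57, adjusted p = 0.958). Genes of the thick ascending limb took 1.82% to 2.08% of counts in wild-type and 2.20% to 2.42% in *Scx-/-* libraries, and had a median of 0.28 with 1 higher DEG of 21 (4.76%). *Slc12a1*, the furosemide-sensitive cotransporter of this segment, stood at 1605, 1016 and 1802 CPM against 2121, 2569 and 2273 CPM (log2 fold change 0.56 ± 0.18, adjusted p = 0.432). The genotypes did not overlap, and *Slc12a1* was named after its values were seen.

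In the distal convoluted and connecting tubule 1 of 16 genes was a lower DEG (*Calb1*, 6.25%, median -0.40), and in principal cells of the collecting duct 1 of 19 was (5.26%, median 0.24). The latter was *Ptges*, a prostaglandin E synthase, at 32.5, 59.1 and 62.5 CPM against 4.47, 6.14 and 0 CPM (log2 fold change -3.78 ± 1.30, adjusted p = 0.507). Of 18 intercalated cell genes and 19 endothelial genes none was a DEG, with medians of 0.13 and -0.10. Of 15 podocyte genes, *Ptpro* was higher, at 5.91, 0 and 4.46 CPM against 17.9, 33.8 and 53.6 CPM, and *Plce1* lower, at 36.4, 7.96 and 10.4 CPM against 0 in all *Scx-/-* libraries (13.3%, against 4.32% of all genes tested, median 0.05). Neither passed the adjusted p, which was 0.791 for both.

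**Figure D4:**
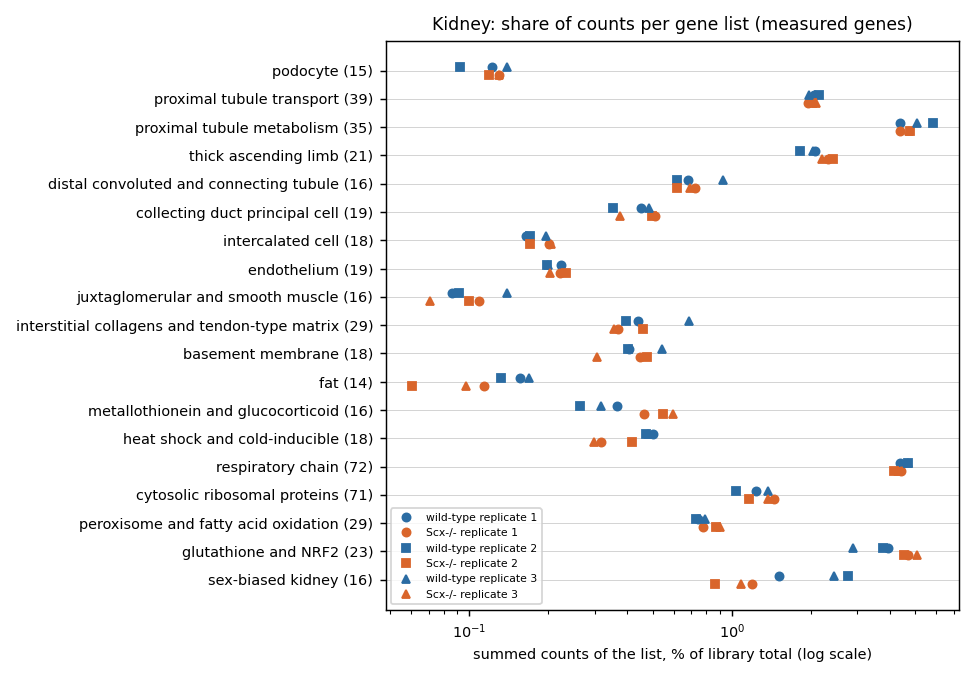
Summed counts of 19 gene lists as a percentage of each library's total, on a log axis, for wild-type (blue) and *Scx-/-* (orange) libraries, with the number of measured genes in brackets. Shares of podocyte, proximal tubule transport and endothelial genes overlap, while those of the thick ascending limb, fat, metallothionein and glucocorticoid, heat shock, glutathione and sex-biased lists do not. Without their most abundant member the fat (*Lpl*), glutathione (*Gpx3*) and sex-biased (*Kap*) lists overlap too.

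The same contrast in liver and bladder was set beside that in kidney. In a fit of 18 libraries with an interaction term, 13 of 17942 genes (0.0725%) differed between kidney and liver, and 11 (0.0613%) between kidney and bladder, at an adjusted p under 0.05. None of the 30 kidney genes was among them. The lowest adjusted p of the 30 was 0.117 against liver (*Rnr2*) and 0.160 against bladder (*Mpv17l* and *Mettl7b*). A p that misses the threshold does not show that the organs were alike. In this fit *G6pc*, *Cirbp* and *Mpv17l* did not pass the adjusted p in kidney (0.607, 0.224 and 0.33). The log2 fold change of *G6pc* was 1.23 ± 0.41 in kidney and 1.22 ± 0.41 in liver. *Cirbp* stood at 2.47 ± 0.69 in kidney, 2.13 ± 0.78 in liver and 1.88 ± 0.68 in bladder. For *Mpv17l* the values were -2.09 ± 0.62, -0.28 ± 0.66 and 1.36 ± 0.71.

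**Figure D5:**
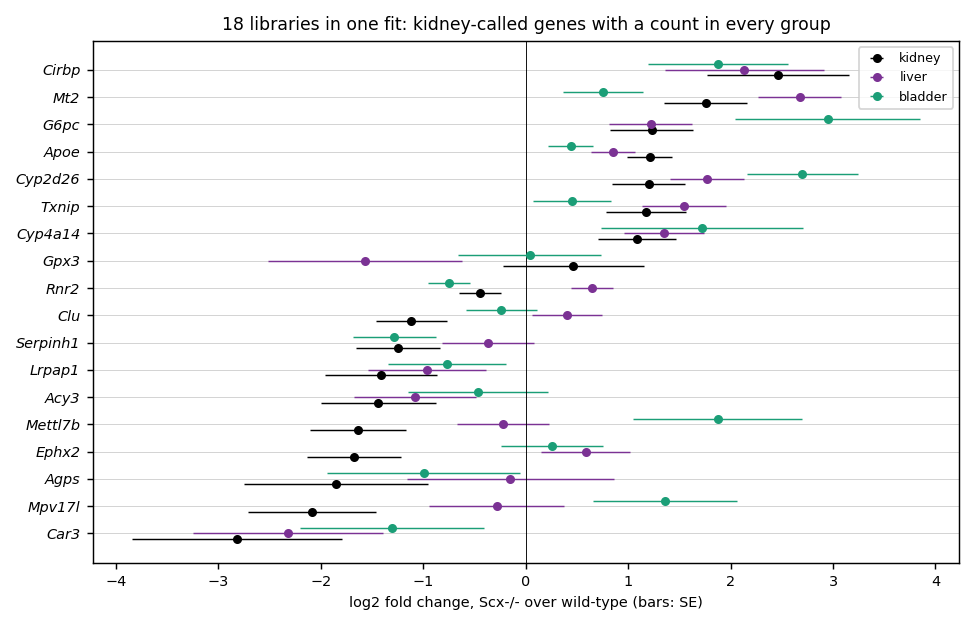
Log2 fold change (*Scx-/-* over wild-type) with its SE in kidney, liver and bladder, from a fit of 18 libraries, for the 18 of 30 kidney genes with a count in each genotype of each organ. *Cirbp*, *Apoe* and *Lrpap1* have the same sign in all 3 organs, while *Mpv17l* and *Mettl7b* are below 0 in kidney and above 0 in bladder.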

How the data were processed

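Bulk RNA of 3 wild-type and 3 *Scx-/-* kidneys was analysed, and liver and bladder libraries entered the interaction fit. The authors extracted total RNA with Trizol, reverse transcribed it with SuperScript II, made libraries with Nextera XT (which they describe as 3′-enriched, and the record as based on Smart-seq2), mapped reads to mm10 with Bowtie2, and counted them with HTSeq. The authors deposited raw counts per gene symbol, without normalization. The sources used here give no tool versions, annotation, strand setting or molecular identifiers. Nothing says which libraries shared a mouse. P-values therefore reflect only how these libraries vary, which may be technical, and limits from counts of 0 cover counting error only.

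Genes with a count in any of 6 libraries were fitted with edgeR 4.0.16 (R 4.3.3), TMM factors, robust glmQLFit and the two-sided quasi-likelihood F test, with Benjamini-Hochberg adjustment over all genes tested. SE is the absolute log2 fold change divided by the square root of F. In this fit 97.2% of genes had infinite prior degrees of freedom, so the trend alone set their spread, against a median of 13.0 with filterByExpr. Depth was 242429 to 1015500 counts. CPM uses library totals, and a group at 0 was set to 3 counts for at-least folds. Alternatives were RLE, library totals, filterByExpr, DESeq2 1.42.0 (the authors' tool), thinning, removal of genes above 5% of counts (which removed none, the highest share being 4.26%), a joint fit, the replicate block and leaving out each library. The Y-linked covariate, limma-voom (limma 3.58.1), list shares without the most abundant member and the *Ces1f* bound without wild-type replicate 2 were added after results were seen. Named genes are *Scx*, every gene at an adjusted p under 0.05, and up to 3 most abundant and 4 most abundant DEG members of each of 37 lists. Not all are printed, and some items are not reported here. Members, lists and tests were chosen with earlier results of these data known. Scripts were tested on simulated data. Promoters are RefSeq (GRCm38.p6) and coordinates GENCODE M21, except *Gm32800* (RefSeq). Python 3.11.15, numpy 2.4.6, pandas 2.3.3 and matplotlib 3.10.9 were used.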

Additional observations from a re-analysis of the deposited data

Results flagged for a closer look

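The response to loss of *Scx* passed the test of a difference between kidney and another organ for 6 genes given here, each with counts in every genotype of both organs, by an interaction term in a fit of 18 libraries with edgeR's quasi-likelihood test. In all, 5 of 13 genes called against liver and 2 of 11 called against bladder had such counts. The others had a group at 0, so their fitted difference has no bound. With filterByExpr 1 of the 6 kept its call, *Tagln* (adjusted p = 0.0288), while the others had an adjusted p of 0.357 to 0.488. *Tagln*, *Igfbp2* and *Gk* kept it in all 6 fits that left out 1 kidney library. Values are the kidney log2 fold change minus that of the other organ.

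*Tagln*, a smooth muscle actin-binding protein, stood at 105, 109 and 137 CPM in wild-type kidney, 42.5, 55.3 and 90.7 CPM in *Scx-/-* kidney, 2.08, 0 and 10.6 CPM in wild-type liver and 16.9, 22.1 and 24.1 CPM in *Scx-/-* liver. The log2 fold change was -1.01 in kidney, which did not pass the test (adjusted p = 0.601), and 2.61 in liver (0.00916), a difference of -3.62 ± 0.59 (adjusted p = 1.97e-05). *Igfbp2*, an IGF-binding protein, differed by -3.67 ± 0.68 (adjusted p = 0.000503), with 16.7, 36.4 and 23.8 against 8.94, 6.14 and 4.12 CPM in kidney and 501, 167 and 709 against 1204, 1623 and 872 CPM in liver. *Wfdc2*, a secreted epithelial protein, differed by 4.12 ± 0.90 (adjusted p = 0.0101), with 246, 270 and 565 against 487, 669 and 553 CPM in kidney (log2 fold change 0.58, adjusted p = 1) and 37.4, 0 and 3.53 against 2.60, 0 and 0 CPM in liver. A single wild-type liver library held most of its liver counts. *Mt1* differed by -2.01 ± 0.47 (adjusted p = 0.0333), with 897, 322 and 540 CPM in wild-type and 808, 2778 and 5473 CPM in *Scx-/-* liver, and was not called under RLE (0.154) or library totals (0.214).

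Against bladder, *Sprr1a*, a cornified envelope protein, differed by -2.45 ± 0.54 (adjusted p = 0.0152), with 48.3, 68.2 and 103 against 31.3, 6.14 and 8.25 CPM in kidney and 3097, 3486 and 3055 against 4588, 3814 and 4259 CPM in bladder (log2 fold change 0.25, adjusted p = 1). In the fit of kidney libraries alone its adjusted p was 0.755, and the difference was not called without wild-type replicate 3, *Scx-/-* replicate 2 or *Scx-/-* replicate 3 (up to 0.197). *Gk*, glycerol kinase, differed by -4.71 ± 1.03 (adjusted p = 0.0152), with 436 to 563 CPM in all kidney libraries and 1.70, 0 and 0 against 0, 37.4 and 45.3 CPM in bladder. With 3 libraries a group, no single library was tested as standing apart.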

How the results depend on the processing

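The counts of called genes moved with the processing, and the cause was not tested. Of DEGs at the study's thresholds there were 664, and 274 with filterByExpr, 382 with the replicate block, 280 with limma-voom, and 343 to 948 with 1 library left out. At an adjusted p under 0.05 there were 30, and 0 with filterByExpr, 12 in the fit of 18 libraries (3 shared), 9 with limma-voom, and 14 to 43 with 1 library left out. RLE, library totals and DESeq2 moved the share of lower DEGs from 62.3% to 50.4%, 51.2% and 52.4%, limma-voom to 39.6%, the replicate block to 76.4% and the Y-linked covariate to 74.0%. The first 3 moved the median log2 fold change from -0.28 to -0.17, -0.17 and -0.08. Interaction calls against liver were 13, and 2 with filterByExpr and 9 to 20 with 1 library left out, with 20 without *Scx-/-* replicate 1. Against bladder they were 11, and 1 with filterByExpr, 18 with the replicate block, and 7 to 15 with 1 library left out, with 7 without *Scx-/-* replicate 3. Without wild-type replicate 1 the DEGs were 416.

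Same-numbered libraries showed little shared deviation (r = 0.0104, -0.0055 and -0.0165). At this depth the check cannot tell whether they shared a mouse, so the block with 23 adjusted calls rests on the numbers alone. The log2 fold change of *S100g* was -0.10 to 0.30 with 1 library left out, below 0 without wild-type replicate 1, wild-type replicate 2 or *Scx-/-* replicate 3. That of *Gk* was -0.066 to 0.16, below 0 without wild-type replicate 1, wild-type replicate 3 or *Scx-/-* replicate 3, and was -0.052 with the Y-linked covariate. A count of 0 allowed 2.95 to 12.4 CPM in single libraries, which limits what low genes can show.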

Other observations

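Genes of the circadian clock were called in both directions. *Arntl*, the clock activator BMAL1, stood at 20.7, 31.8 and 19.3 CPM in wild-type kidney and at 0 in all *Scx-/-* libraries, at least 8.17-fold lower. *Bhlhe40*, a clock repressor, stood at 51.2, 73.9 and 31.2 CPM against 91.7, 175 and 136 CPM (log2 fold change 1.24 ± 0.54), and *Nr1d2*, another repressor, at 8.86, 39.8 and 56.5 CPM against 33.5, 114 and 136 CPM (1.32 ± 0.67). These were the 3 DEGs of 16 measured clock genes (18.8%, against 4.32% of all genes tested), and none passed the adjusted p, which was 0.632 for *Arntl* and 0.791 for the others. The sources used here do not give the hour of sampling.

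Proliferation genes had a median log2 fold change of -1.92 over 26 measured, with 2 lower DEGs (7.69%, against 4.32% of all genes tested), and a summed share of 0.0581% to 0.105% of counts in wild-type and 0.0392% to 0.0645% in *Scx-/-* libraries. The most abundant members overlapped between genotypes, with *Tuba1b*, a tubulin, at 170, 198 and 156 CPM against 203, 212 and 128 CPM (log2 fold change -0.05 ± 0.39) and *Mcm6*, a replication helicase subunit, at 51.2, 131 and 115 CPM against 98.4, 123 and 57.7 CPM (-0.17 ± 0.52). Of the 26, 1 had a mean of at least 100 CPM. *Top2a*, the topoisomerase of dividing cells, stood at 39.4, 33.0 and 14.9 CPM against 2.24, 0 and 0 CPM, where 2.24 CPM is 1 count. Of 20 cholesterol synthesis genes 2 were lower DEGs (10%), with *Cyp51*, lanosterol demethylase, at 97.5, 273 and 159 CPM against 177, 18.4 and 28.9 CPM. *Hspa8*, the constitutive Hsp70, split within both genotypes, at 701, 4.55 and 1068 CPM against 0, 813 and 12.4 CPM, and was named after its values were seen.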
